A study of Mus musculus with 6 samples.

Results

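Signalling by transforming growth factor beta (TGF-beta) and by the related ligand Nodal was examined in mouse regulatory T (Treg) cells with and without the AP-1 family protein Batf. The 10 genes described were the ligand Tgfb3, the receptors Tgfbr1, Tgfbr2 and Tgfbr3, the Nodal co-receptor Tdgf1, the signal transducers Smad2, Smad3 and Smad4, and the inhibitors Smad7 and Skil. They were taken by name, each through the array probe sets (groups of probes for a transcript) annotated to that gene alone. All 10 were measured, by 22 probe sets, among 18193 genes in all.

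In this pathway a TGF-beta ligand binds the type II receptor Tgfbr2, which recruits and phosphorylates the type I receptor Tgfbr1. Tgfbr1 phosphorylates Smad2 and Smad3, which join Smad4 and act on genes in the nucleus. Nodal uses activin receptors and the same Smads, and needs a co-receptor such as Tdgf1, also called Cripto. In T cells TGF-beta induces Foxp3, the factor that defines Treg cells, and also integrin and homing receptors, and it restrains effector responses.

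The cells were CD4+ cells that carried human CD2 as a reporter of Foxp3 (FoxP3hCD2), sorted from the spleen and lymph node of mice on C57BL/6. One group of 3 arrays came from FoxP3hCD2.Batf+/+ mice and the other group of 3 arrays from FoxP3hCD2.Batf-/- mice, so both groups carried the reporter. The cells received no treatment and were not cultured, and the sources used here give no age and no cell type in which Batf was removed. The labels describe triplicates without saying whether each came from its own mouse, so a p-value here reflects only how far these samples spread, and part of that spread may be technical. The deposited log2 levels are set to the Batf+/+ median of each probe set, so they compare genotypes for a gene and hold no information on how abundant a transcript is. Precision is limited by the 3 arrays per genotype.

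Batf had levels of -0.13, 0 and 0.14 on Batf+/+ arrays 1, 2 and 3 and of -3.13, -3.16 and -2.37 on Batf-/- arrays 1, 2 and 3, which followed the labels on all 6 arrays. Foxp3 had a log2 difference (Batf-/- minus Batf+/+, here and throughout) of -0.12 ± 0.08 (SE, n = 3 per genotype, adjusted p = 0.892 in limma). Of 9 measured genes of Treg identity 0 passed the threshold, an adjusted p below 0.05, and 3 had an unadjusted p below 0.05 (7.69% of all genes). The smallest adjusted p among them was 0.0526 and the median log2 difference was -0.12. In 4 of the 9, Foxp3 among them, all Batf-/- arrays lay below all Batf+/+ arrays (6.55% of all genes). In 1 of the 9 they all lay above (5.50% of all genes), and the log2 differences of the 9 ran from -0.51 to 0.21. The part of these genes in the results below was not tested. Because levels were relative, presence of the Treg markers themselves could not be checked. Of 50 measured markers of 11 other cell types 0 passed by limma (smallest adjusted p = 0.258, 6 at an unadjusted p below 0.05).

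Of the 10 genes, 1 rose without Batf and 0 fell. Tdgf1, the Nodal co-receptor, rose 2.88-fold, while each of the other 9 genes differed by 0.36 or less on the log2 scale and did not pass the threshold. Over all genes 1.14% passed, 0.313% as higher and 0.830% as lower. The 10 genes were chosen with earlier results of these data known, so their counts are not independent of those results. The arrays of the genotypes did not overlap for 2 of the 10 genes, Tdgf1 and Tgfbr1, against 12.0% of all genes (5.50% with the Batf-/- arrays above, as for Tdgf1). The median log2 difference was -0.0062 over the 10 genes and 0.0047 over all genes. At an unadjusted p below 0.05 there were 3 of the 10 genes, Tdgf1, Tgfbr1 and Tgfb3, against 7.69% of all genes. In whole sorted populations, fewer cells that express a gene and less RNA per cell cannot be told apart.

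**Figure D1:**
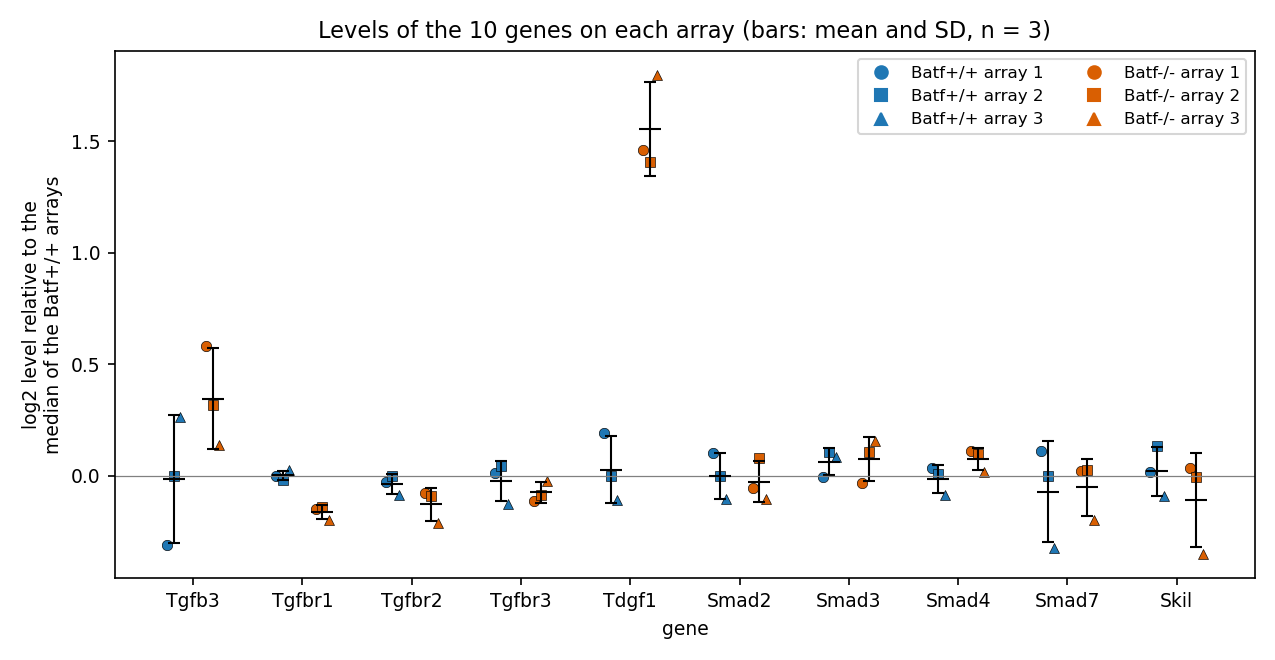
Levels of the 10 genes on each of the 6 arrays, on the log2 scale with the Batf+/+ median near 0 (blue Batf+/+, orange Batf-/-, symbols mark array numbers, bars the mean and SD of 3 arrays). Tdgf1 lies between 1.41 and 1.80 on the Batf-/- arrays and between -0.11 and 0.19 on the Batf+/+ arrays, and Tgfbr1 is the other gene whose groups do not overlap.

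Tdgf1 encodes a small protein of the EGF-CFC family, anchored at the cell surface, known mainly from the early embryo and from stem cells. Its levels were 0.19, 0 and -0.11 on Batf+/+ arrays 1, 2 and 3 and 1.46, 1.41 and 1.80 on Batf-/- arrays 1, 2 and 3. All Batf-/- arrays were therefore high and all Batf+/+ arrays low, with a gap between the groups far wider than either group. The Batf+/+ mean of 0.03 ± 0.15 and the Batf-/- mean of 1.56 ± 0.21 (SD, n = 3 each) gave a log2 difference of 1.53 ± 0.12 (SE, adjusted p = 0.00059 in limma, 95% interval 1.25 to 1.80). As a fold the interval ran from 2.38 to 3.49. Of the 18193 genes 17 had a smaller p, and Tdgf1 stood eighth in the order of the log2 differences from high to low. Between arrays of the same number Tdgf1 was higher in Batf-/- cells by 1.27, 1.41 and 1.91. It was past the threshold under all 13 alternative settings of the fit and when its probe set was tested alone.

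The rise of Tdgf1 rested on 1 probe set, so no second probe set of the gene could be compared with it. The mouse annotation holds 2 pseudogenes of Tdgf1, Tdgf1-ps1 and Tdgf1-ps2, on chromosomes other than that of the gene. Whether the probes also detect their transcripts was not analysed here. The mean level of 5 measured B cell markers was -0.07, -0.05 and 0.06 on the Batf+/+ arrays and 0.07, 0.07 and 0.57 on Batf-/- arrays 1, 2 and 3, with 0 of 5 past the threshold. That of 7 myeloid markers was -0.05, -0.01 and 0.10 on the Batf+/+ arrays and -0.13, 0.03 and 0.30 on Batf-/- arrays 1, 2 and 3. Without Batf-/- array 3 Tdgf1 had a log2 difference of 1.41 (adjusted p = 0.000823 in limma). Whether other cells contributed to the Tdgf1 signal on any array was not tested.

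The promoter sequences below are shown because Tdgf1 and Tgfbr1 are the members whose arrays did not overlap between the genotypes. From RefSeq (GRCm38.p6), 5 promoters of 4 of the 10 genes were examined, those of Tdgf1, Tgfbr1 with 2 start sites, Tgfbr2 and Smad3. Promoters of the other members were not examined here, so the motif counts below do not cover them. The 250 bases before the start are at chr9:110946159-110946408 on the minus strand for Tdgf1 and at chr4:47352972-47353221 on the plus strand for the first start of Tgfbr1. Capitals in the Tdgf1 sequence mark a unit of 19 bases that follows itself without a gap, from 50 to 13 bases before the start.
Tdgf1: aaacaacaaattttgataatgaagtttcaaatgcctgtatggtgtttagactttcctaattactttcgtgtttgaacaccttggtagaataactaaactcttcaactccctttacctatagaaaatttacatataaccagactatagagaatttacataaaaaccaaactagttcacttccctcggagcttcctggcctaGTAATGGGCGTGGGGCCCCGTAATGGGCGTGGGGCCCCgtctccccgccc
Tgfbr1: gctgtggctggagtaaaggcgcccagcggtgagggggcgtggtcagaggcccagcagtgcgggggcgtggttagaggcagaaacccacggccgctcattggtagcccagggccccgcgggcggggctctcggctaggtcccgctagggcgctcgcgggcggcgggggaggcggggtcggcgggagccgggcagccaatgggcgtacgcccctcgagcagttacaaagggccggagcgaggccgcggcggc

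Exact tandem repeats with a unit of that length or longer were found in 0.557% of the 32851 promoters of the same length. The Tdgf1 window was 42.0% G and C, against 74.8% for that of Tgfbr1, 69.2% for Smad3, 58.4% for Tgfbr2 and a median of 52.4% over all promoters. The AP-1 element TGANTCA, the kind of site that Batf binds with Jun proteins, was searched on both strands and had 0 matches in the 5 windows, against 6.75% of all promoters with a match. The Smad element CAGACA, searched likewise, had 1 match, at the second start of Tgfbr1 (chr4:47385966-47386215), and a match in 17.1% of all promoters. A missing match says that these letters are not in the window and nothing about binding elsewhere.

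**Figure D2:**
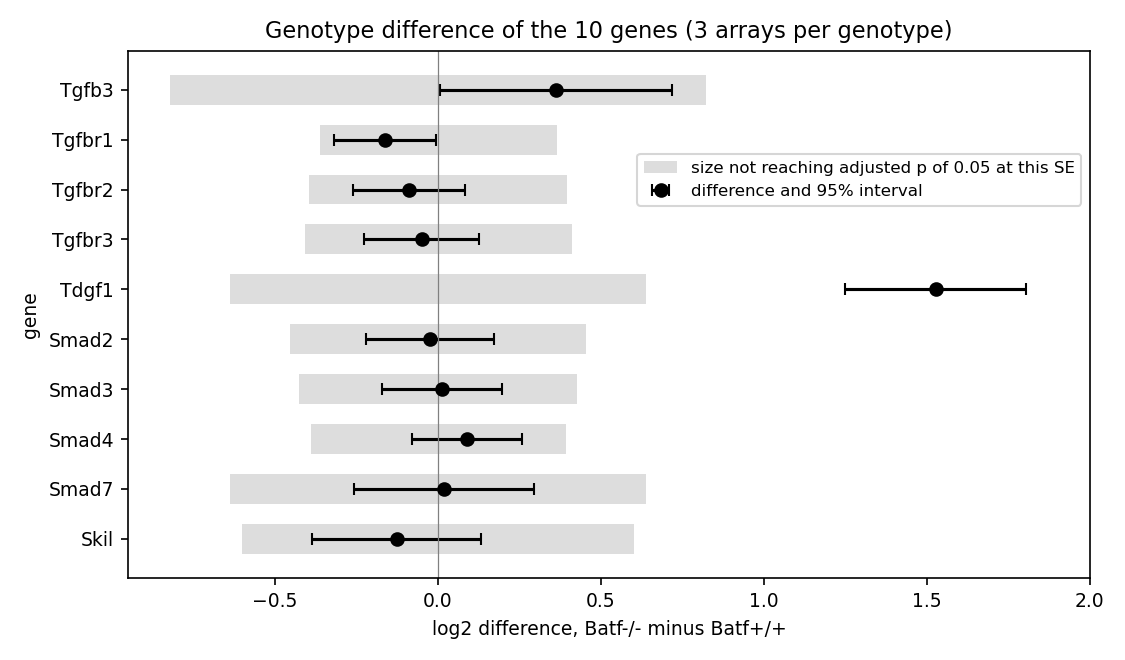
Log2 difference between genotypes (Batf-/- minus Batf+/+) of the 10 genes with its 95% interval, over grey bars that span the sizes too small to pass the threshold at that gene's standard error. Tdgf1, at 1.53, lies outside its grey bar, and the points of the other 9 genes lie inside theirs.

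Tgfb3, a TGF-beta ligand, had levels of -0.31, 0 and 0.26 on Batf+/+ arrays 1, 2 and 3 and of 0.58, 0.32 and 0.14 on Batf-/- arrays 1, 2 and 3. The groups overlapped, since Batf-/- array 3 lay below Batf+/+ array 3. The log2 difference of Tgfb3 was 0.36 ± 0.16 (SE, adjusted p = 0.63 in limma, 95% interval 0.0065 to 0.72). Between arrays of the same number the difference was 0.89, 0.32 and -0.13, so it was not of the same sign in every pair. It was also the gene with the widest spread within Batf+/+ cells among the 10 (SD 0.29), and would have needed a log2 difference of 0.82 to pass at its standard error. The difference depended on single arrays, in both directions. It was 0.22 when Batf+/+ array 1 was left out and 0.24 when Batf-/- array 1 was. It was 0.50 when Batf+/+ array 3 was left out and 0.47 when Batf-/- array 3 was.

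The receptors were slightly lower or near 0 in Batf-/- cells, and 0 of 3 passed. Tgfbr1, the type I receptor, had levels of 0.0014, -0.02 and 0.02 on Batf+/+ arrays 1, 2 and 3 and of -0.15, -0.14 and -0.20 on Batf-/- arrays 1, 2 and 3. Each Batf-/- array was below each Batf+/+ array, as in 6.55% of all genes. The log2 difference was -0.16 ± 0.07 (SE, adjusted p = 0.614 in limma, 95% interval -0.32 to -0.0052), a level 1.12-fold lower. Its 3 probe sets gave -0.12, -0.14 and -0.23, and the groups overlapped in the first and second of these and not in the third. A log2 difference of 0.36 would have been needed for a call.

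Tgfbr2, the type II receptor that binds the ligand, had levels of -0.02, 0 and -0.09 on Batf+/+ arrays and of -0.08, -0.09 and -0.21 on Batf-/- arrays. Batf+/+ array 3 fell among the Batf-/- arrays, and the log2 difference was -0.09 ± 0.08 (SE, adjusted p = 0.97 in limma, 95% interval -0.26 to 0.08). Its 3 probe sets were all between -0.10 and -0.06. Tgfbr3, or betaglycan, which presents ligand to the signalling receptors, had levels of 0.01, 0.04 and -0.12 on Batf+/+ arrays and of -0.11, -0.09 and -0.02 on Batf-/- arrays, again with overlap. Its log2 difference was -0.05 ± 0.08 (adjusted p above 0.99 in limma, 95% interval -0.23 to 0.13).

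The 3 Smads that carry the signal were within 0.09 of 0 on the log2 scale. Smad2 had levels of 0.10, 0 and -0.10 on Batf+/+ arrays and of -0.05, 0.08 and -0.10 on Batf-/- arrays, so the groups covered nearly the same range. Between genotypes Smad2 differed by -0.03 ± 0.09 on the log2 scale (SE, 95% interval -0.22 to 0.17). Smad3, which has been tied to CD103 and Foxp3 induction by TGF-beta, had levels of -0.0050, 0.11 and 0.09 on Batf+/+ arrays and of -0.03, 0.11 and 0.16 on Batf-/- arrays. Between genotypes Smad3 differed by 0.01 ± 0.08 on the log2 scale (95% interval -0.17 to 0.20). Smad4, the partner shared by Smad2 and Smad3, had levels of 0.04, 0.0097 and -0.08 on Batf+/+ arrays and of 0.11, 0.10 and 0.02 on Batf-/- arrays. Its log2 difference was 0.09 ± 0.07 (95% interval -0.08 to 0.26), with all 3 probe sets above 0, between 0.07 and 0.12. Between arrays of the same number Smad4 was higher in Batf-/- cells each time, by 0.08, 0.09 and 0.10, yet the limma adjusted p was 0.617 with the number as a replicate block.

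The inhibitors had 0 of 2 past the threshold and wider spreads. Smad7, which blocks the type I receptor and is itself induced by the pathway, had levels of 0.11, 0 and -0.32 on Batf+/+ arrays and of 0.02, 0.03 and -0.20 on Batf-/- arrays. The arrays numbered 3 were the low ones in both genotypes, and the log2 difference was 0.02 ± 0.12 (SE, 95% interval -0.26 to 0.30). Skil, which encodes SnoN, a repressor of Smad target genes that TGF-beta first degrades and then induces, had levels of 0.02, 0.13 and -0.09 on Batf+/+ arrays and of 0.04, -0.0063 and -0.35 on Batf-/- arrays. Its low mean in Batf-/- cells came largely from array 3, without which the log2 difference was -0.0061 in place of -0.13 ± 0.11 (adjusted p = 0.978 in limma, 95% interval -0.39 to 0.13). Single arrays also moved Tgfbr2 (-0.05 without Batf-/- array 3), Tgfbr3 (-0.02 without Batf+/+ array 2, -0.10 without array 3) and Smad4 (0.05 without Batf+/+ array 3). For the 8 genes other than Tdgf1 and Tgfb3 the 95% intervals thus lay between -0.39 and 0.30 on the log2 scale. To pass the threshold at their standard errors these 8 genes would have needed a log2 difference of at least 0.36 (Tgfbr1) to 0.64 (Smad7), so smaller changes would have been missed.

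**Figure D3:**
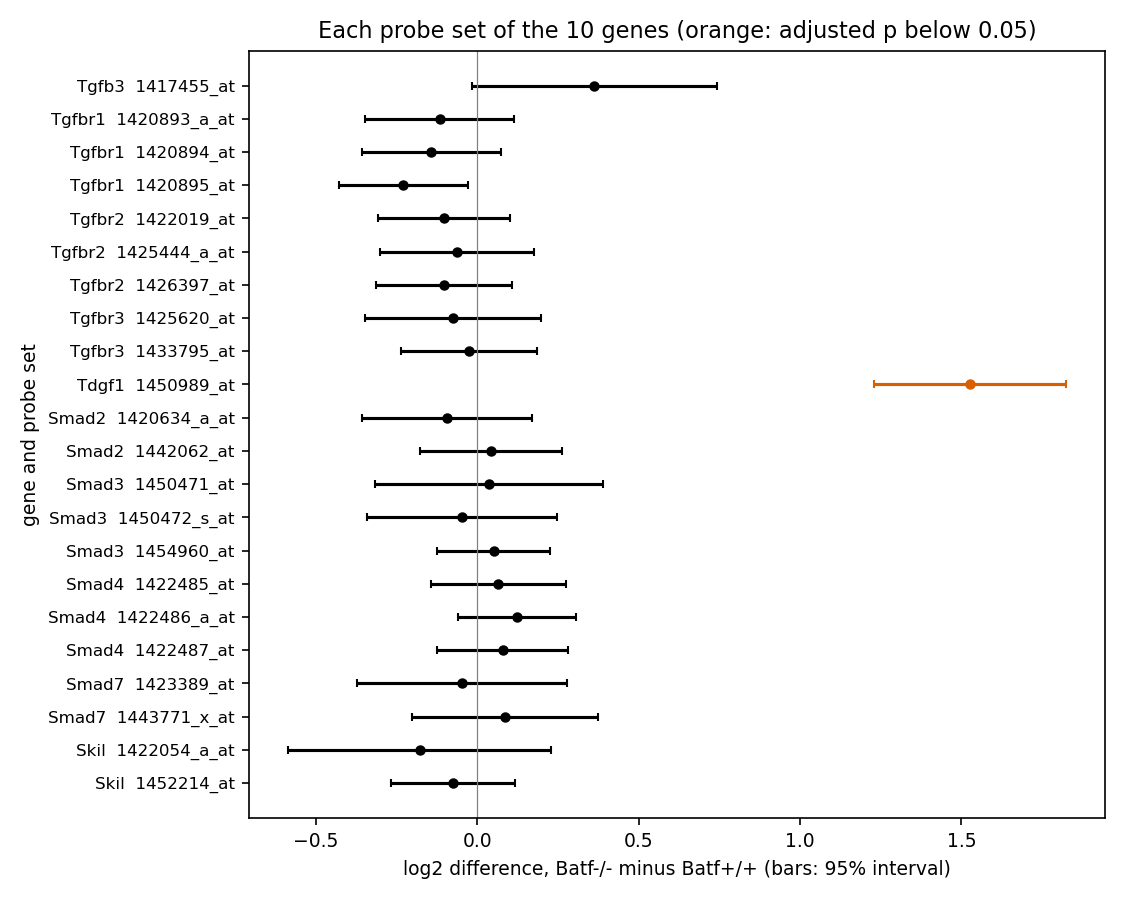
Log2 difference between genotypes of each of the 22 probe sets of the 10 genes, with its 95% interval, when every probe set is tested on its own (orange where the adjusted p is below 0.05). The probe set of Tdgf1 passed and the others did not, with the lowest at -0.23 in Tgfbr1 and the next highest at 0.36 in Tgfb3.

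Probe sets of a gene were close to each other for most members. When each was tested alone, 1 of 22 passed, that of Tdgf1, against 0.713% of all 34945 probe sets. In Smad2, Smad3 and Smad7 the probe sets lay on both sides of 0, from -0.09 to 0.04, from -0.05 to 0.05 and from -0.05 to 0.09. In Tgfbr1, Tgfbr2, Tgfbr3 and Skil all were below 0, and in Smad4 all were above 0.

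Beyond these 10 genes, 78 further genes of the wider pathway were measured, and of these 3 fell and 0 rose, against 0.830% and 0.313% of all genes. Those that fell were the targets Itgae and Gpr15 and the inhibitor Ldlrad4. The median log2 difference of the 78 genes was -0.02, against 0.0047 for all genes. Groups did not overlap in 15 of 78, against 12.0% of all genes. The Batf-/- arrays lay below in 12 of them (6.55% of all genes) and above in 3 (5.50% of all genes). By role, 0 of 14 measured ligands, 0 of 10 genes of latency and activation, 0 of 13 Smads and partners and 0 of 4 positive ubiquitin regulators passed by limma. These roles held 4, 2, 0 and 0 genes at an unadjusted p below 0.05, as had 7.69% of all genes. The receptors and co-receptors had 1 of 15, Tdgf1, the inhibitors 1 of 20 and the transcriptional targets 2 of 12, where 1.14% of all genes passed. The lists were chosen with earlier results of these data known, so these counts are not independent of those results.

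**Figure D4:**
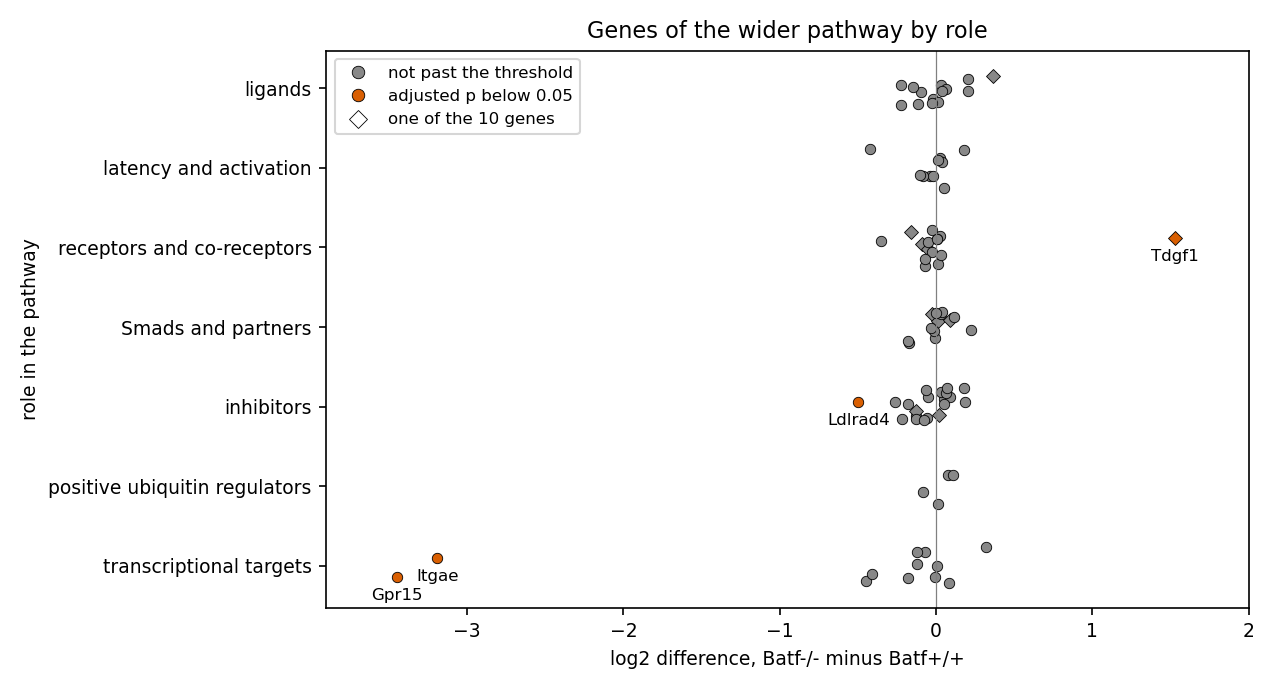
Log2 difference between genotypes (Batf-/- minus Batf+/+) of the 88 measured genes of the wider pathway in rows by role, with diamonds for the 10 genes and orange for an adjusted p below 0.05. Gpr15 and Itgae lie below -3, Ldlrad4 at -0.50 and Tdgf1 at 1.53, and the other genes lie between -0.45 and 0.36; the vertical scatter within a row has no meaning.

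The Nodal side of the pathway had 0 of 10 genes past the threshold besides Tdgf1 (limma), where 1.14% of all genes passed. At an unadjusted p below 0.05 there were 2 of the 10, against 7.69% of all genes. These 10 were picked from the wider pathway list and do not form one of its roles. Nodal itself had a log2 difference of 0.03 ± 0.10 (SE, n = 3 per genotype, adjusted p above 0.99 in limma), and Cfc1, the other co-receptor of the EGF-CFC family, one of 0.0029 ± 0.11. Lefty2, an extracellular inhibitor induced by Nodal, had levels of 0, -0.10 and 0.05 on Batf+/+ arrays and of 0.13, 0.15 and 0.27 on Batf-/- arrays. Its groups did not overlap, but its log2 difference of 0.20 ± 0.08 did not pass (adjusted p = 0.533 in limma), and its relative Lefty1 had one of -0.12 ± 0.08. The activin type II receptor Acvr2a, named after its value was seen, had levels of 0.05, 0.06 and -0.05 on Batf+/+ arrays and of -0.13, -0.35 and -0.51 on Batf-/- arrays. Its log2 difference was -0.35 ± 0.10 (adjusted p = 0.265 in limma).

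Among ligands and their activators, Tgfb1, the main TGF-beta of the immune system, had levels of -0.01, -0.05 and 0.06 on Batf+/+ arrays and of -0.09, -0.18 and -0.42 on Batf-/- arrays. All Batf-/- arrays were lower, and its log2 difference was -0.23 ± 0.10 (SE, adjusted p = 0.614 in limma), or -0.13 without Batf-/- array 3. Itgb8, the integrin chain by which Treg cells activate latent TGF-beta, had levels of 0.04, 0 and -0.40 on Batf+/+ arrays and of -0.48, -0.56 and -0.59 on Batf-/- arrays. Its log2 difference was -0.42 ± 0.12 (adjusted p = 0.234 in limma). It passed under 1 of the 13 alternative settings, without Batf+/+ array 3, where the difference was -0.56 (adjusted p = 0.0302 in limma). Without Batf+/+ array 1 or 2 the difference was -0.34 and -0.36 (adjusted p = 0.61 and 0.629 in limma). Over the 13 settings the adjusted p reached 0.844. Lrrc32, which anchors latent TGF-beta on Treg cells, was not analysed here.

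Ldlrad4, a membrane protein that holds back Smad activation by the receptor, had levels of -0.04, 0.05 and 0.04 on Batf+/+ arrays and of -0.35, -0.61 and -0.47 on Batf-/- arrays. It was 1.41-fold lower (log2 difference -0.50 ± 0.09 SE, adjusted p = 0.0303 in limma), with 1 of its 4 probe sets past the threshold alone and all of them between -0.90 and -0.11. Leaving out Batf+/+ array 1, 2 or 3 gave an adjusted p of 0.0904, 0.151 and 0.1105, and leaving out Batf-/- array 2 or 3 gave 0.1108 and 0.0781. It was also 0.0603 with the median of its probe sets, so the call is not firm. After quantile normalization it was 0.101, a setting applied to values already centred on Batf+/+. That setting also made the Batf difference smaller, -2.02 in place of -2.89. Tab2, an adaptor of the kinase Tak1 that TGF-beta also activates, had a log2 difference of -0.18 ± 0.10 (adjusted p = 0.84 in limma). Without Batf+/+ array 1 it was -0.08, and its 2 probe sets gave -0.05 and -0.30. Usp4, a deubiquitinase that stabilises Tgfbr1, had one of 0.11 ± 0.08 (adjusted p = 0.936 in limma), 0.06 without Batf-/- array 2 and 0.23 and -0.02 in its 2 probe sets.

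Among the targets, Itgae, the CD103 integrin chain that TGF-beta induces on T cells, had levels of 0.0050, 0.02 and -0.35 on Batf+/+ arrays and of -3.01, -3.30 and -3.59 on Batf-/- arrays. Gpr15, a homing receptor of the large intestine that TGF-beta also induces, had levels of 0, -0.08 and 0.33 on Batf+/+ arrays and of -3.08, -3.67 and -3.34 on Batf-/- arrays. Both were far lower on each Batf-/- array, with the same adjusted p = 5.29e-05 in limma and log2 differences of -3.19 ± 0.15 and -3.45 ± 0.16 (SE). The other 10 measured targets did not pass. Among them Id2 and Id3, inhibitors of E proteins and named after their values were seen, had log2 differences of -0.45 ± 0.15 and -0.41 ± 0.10 (adjusted p = 0.377 and 0.136 in limma), without overlap of the groups. Tgfbi, named likewise, had one of 0.09 ± 0.08 (adjusted p = 0.978 in limma). In 6 of the 12 measured targets all Batf-/- arrays were below all Batf+/+ arrays, against 6.55% of all genes, and 0 lay wholly above. The 6 were Itgae, Gpr15, Id2, Id3, Cdkn1a and Foxp3, and Foxp3 was also among the Treg markers above. The list of targets was drawn up when the decreases of Itgae and Gpr15 in these data were already known. The count of 6 is therefore not independent evidence of its direction. The list gave no direction in which TGF-beta acts on each gene, so a change in the response to TGF-beta was not tested.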

How the data were processed

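RNA of 6 samples was labelled with biotin by a 3' IVT kit and hybridised to 3' expression arrays, per the labels' protocols. The values deposited by the authors are taken to be log2, the base that RMA gives; RMA is named in the submitters' processing notes. In all 45101 probe sets the middle Batf+/+ value is exactly 0, so the values were also centred on the Batf+/+ median. This keeps genotype differences but removes absolute levels and narrows the Batf+/+ distribution. No scan date was used here.

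Of the probe sets, 34945 had 1 gene in the platform annotation, 932 had several and 9160 had none listed, and 64 were controls. A gene is the mean of its probe sets annotated to it alone, with dim genes kept. The test of genotype, the only term, was that of limma 3.58.1 (lmFit and eBayes, R 4.3.3) over 18193 genes, with Benjamini-Hochberg adjustment over all of them. The fit was tested on simulated data. The log2 difference needed for a call is a gene's standard error times the t at the largest p called.

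The members and the lists were chosen with earlier results of these data known. Of 92 genes listed for the wider pathway 88 had a probe set of their own. Genes named are Batf, the 10 members, called pathway genes and, in each role without a call, the gene of smallest p. Also named are 6 genes fixed by name (of which 5 are reported) and the 3 genes most correlated with Tdgf1. For these 3, clone names and Gm, Rik and LOC symbols were left out. Nodal, Cfc1 and Lefty1 are named outside these rules, as genes of the Nodal side. Other names are said to follow their values.

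Sample titles of both genotypes share replicate numbers. After group means were subtracted, Pearson correlations over genes within the 3 numbers were 0.41, 0.15 and 0.41. All exceeded 0.1, and on that basis, which is the values and not the labels, a number counts as a pair. The fit without the number is the main one. Standard errors, intervals and sizes needed for a call come from it unless said otherwise, so they leave out the pairing. With the replicate block the standard error of Smad7 fell to 0.07 from 0.12, while that of Tgfb3 rose to 0.17 from 0.16.

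Alternatives were each probe set alone, no shared-sequence probe sets, the median of probe sets, equal array medians, quantile normalization, the replicate block, array weights, robust eBayes and leaving out each array.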

Additional observations from a re-analysis of the deposited data

How the results depend on the processing

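Tdgf1 stayed higher and past the threshold under all 13 alternatives of the fit by gene, with log2 differences from 1.14 (quantile normalization) to 1.61 and adjusted p values from 0.00022 to 0.00606 (limma). The other 9 genes passed under 0 of the 13. Of the 10 genes 1 was higher and 0 were lower in each alternative, and of the wider pathway 1 was higher and 2 or 3 lower. With the replicate block, 91 of all genes were higher past the threshold in place of 57, and 202 were lower in place of 151. The block changed no call among the 10 genes. Tdgf1 kept its log2 difference of 1.53 with the block (adjusted p = 0.00336). Quantile normalization gave 23 higher and 58 lower genes in place of 57 and 151. It was applied to values already centred on the Batf+/+ median, which narrows the Batf+/+ arrays. The Batf difference was then -2.02 in place of -2.89, so a call lost under this setting decides nothing. Leaving out 1 array in turn gave from 31 to 51 higher and from 73 to 141 lower genes. Genes near 0 changed sign without a call. Smad2 was 0.0426 without shared-sequence probe sets and in 1 of its 2 probe sets, 0.0033 with array weights and from -0.0775 to 0.0259 leaving out 1 array. Smad3 was -0.0222 after quantile normalization, -0.0468 in 1 probe set and from -0.027 to 0.0681 leaving out 1 array. Smad7 was -0.0473 without shared-sequence probe sets and in 1 probe set and from -0.11 to 0.11 leaving out 1 array. Usp4 was -0.0163 in 1 of its 2 probe sets. The cause of these changes was not tested. Signal over background is not known from centred values, so dim genes could not be set apart.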

Other observations

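Tgfb3 lies close to the targeted gene itself. In the RefSeq annotation of GRCm38.p6, Tgfb3 is the fourth measured gene from Batf in one direction on chromosome 12, after Flvcr2, Erg28 and Ttll5. Of the 5 measured genes on each side of Batf 0 passed the threshold by limma, and 1 of the 10, Jdp2, which encodes an AP-1 family repressor, had groups that did not overlap, near the 12.0% of all genes. The levels of Jdp2 were 0, -0.0017 and 0.04 on Batf+/+ arrays and 0.17, 0.17 and 0.33 on Batf-/- arrays, a log2 difference of 0.21 ± 0.08 (SE, n = 3 per genotype, adjusted p = 0.466 in limma). The value of Tgfb3, 0.36, was the highest of the 10.

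Around Tdgf1 on chromosome 9, 0 of the 10 nearest measured genes passed by limma, while 5 of the 10 had groups that did not overlap, against 12.0% of all genes. On one side, Als2cl had a log2 difference of 0.29 ± 0.10 (SE, adjusted p = 0.406 in limma). Next to it Tmie, a membrane protein of inner ear hair cells, had levels of -0.02, -0.0012 and 0.06 on Batf+/+ arrays and of 0.35, 0.42 and 0.59 on Batf-/- arrays, a log2 difference of 0.44 ± 0.09 (adjusted p = 0.0524 in limma). On the other side, Lrrc2 had a log2 difference of -0.17 ± 0.08, Rtp3 one of 0.21 ± 0.08 and the chemerin-binding receptor Ccrl2 one of -0.57 ± 0.17 (adjusted p = 0.72, 0.517 and 0.284 in limma). These neighbourhoods were examined after the values of Tdgf1 and Tgfb3 had been seen.

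With clone names and Gm, Rik and LOC symbols left out, the genes whose pattern over the 6 arrays was most like that of Tdgf1 were Ubtd2, Btf3l4 and Cd80. Their Pearson correlations with it were 0.996, 0.995 and 0.993, and Cd80 is a ligand of CD28 and CTLA-4. Cd80 had levels of 0.09, -0.01 and -0.0016 on Batf+/+ arrays and of 0.44, 0.35 and 0.52 on Batf-/- arrays. Its log2 difference was 0.41 ± 0.08 (SE, adjusted p = 0.0484 in limma), that of Ubtd2 was 0.38 ± 0.07 (adjusted p = 0.0467) and that of Btf3l4 was 0.19 ± 0.07 (adjusted p = 0.44). The 3 genes were picked for likeness to Tdgf1, whose levels split by genotype, so their differences are not separate evidence. The calls of Cd80 and Ubtd2 lay close to the threshold and were not examined under the alternative settings. Of 18192 genes 74 had a correlation above 0.95 and 98 one below -0.95, and all of them share the same 6 arrays.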
